A study of Mus musculus with 8 samples.

Results

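Foxo1, Foxo3 and Foxp1, transcription factor genes of the forkhead family, were examined for Foxp3 binding sites in mouse regulatory T (Treg) cells. A deposited site was counted for a protein-coding gene if its centre lay in the gene or up to 5 kb outside it. A site with no such gene went to the nearest gene end within 100 kb. By this rule 23 of 5521 sites fell to these genes, 21 to Foxp1, 2 to Foxo1 and 0 to Foxo3. Binding was measured by CUT&Tag, in which an antibody recruits a transposase that cuts and tags the DNA around its target for sequencing. The authors list the sites in 3 classes, named cTreg-specific, common and eTreg-specific, and the abbreviations are used here as they stand.

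The Treg cells of C57BL6/J mice came from spleen and lymph nodes and were sorted as CD4+, hCD2+ and GFP- shortly before use. R397W cells carried the genotype Foxp3R397W-IRES-hCD2/Foxp3-IRES-GFP and WT cells the genotype Foxp3WT-IRES-hCD2/Foxp3-IRES-GFP. The change lies in the forkhead domain of Foxp3, the part that contacts DNA. Both genotypes therefore shared a GFP-tagged Foxp3 allele, and the gate kept cells with the hCD2 tag and without GFP, in mice that could also hold Treg cells of the GFP-tagged allele. Each genotype had 2 libraries with anti-Foxp3 and 2 with normal rabbit IgG, a measure of background. The labels used here give no age, and they do not say whether libraries 1 and 2 came from separate mice. P-values then measure only the spread between these libraries, which may be technical. The Treg label could not be checked against expression in binding data.

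Foxo1 and Foxo3 encode FoxO factors, which activate genes of quiescence and lymph node homing in T cells. The kinase AKT, downstream of PI3K, phosphorylates them, and they then leave the nucleus. Foxo1 is also needed for the development and function of Treg cells. Foxp1 encodes a close relative of Foxp3, can form dimers with it, and helps to keep naive T cells quiescent.

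Reads in the listed sites numbered between 111274 and 394196 per library. Sites without a read made up 3.13% to 27.0% of all sites in the libraries numbered 1, and 44.4% to 66.8% in those numbered 2. Values are normalised read counts, that is, reads divided by a factor of the library and file, and 5515 of the 5521 sites span 400 bp, so site values need no length correction. Each class has its own factors, so values of different classes stand on different scales within a library. A value averages over all sorted cells, so that fewer bound cells and less binding per cell cannot be told apart. Treg marker genes had sites in 5 of 6 cases (23 sites), the 6 B cell and 6 myeloid genes had 0, and 2 of 6 CD8 T and NK cell genes had 4. These counts describe the authors' site lists, which are the same for all libraries. They do not check the identity or purity of the sorted cells.

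RefSeq places 3 transcript starts in Foxp1, at 0, 254 and 493 kb from the first. A cTreg-specific site lies over the second of them, with its centre 26 bp away. The site is the only member that overlaps a RefSeq promoter window of its gene, and the part of it that lies before the start is shown for that reason. This part spans chr6:99266516-99266741 of GRCm38.p6, minus strand, and capitals mark the forkhead core TGTTTA.

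Foxp1 second start: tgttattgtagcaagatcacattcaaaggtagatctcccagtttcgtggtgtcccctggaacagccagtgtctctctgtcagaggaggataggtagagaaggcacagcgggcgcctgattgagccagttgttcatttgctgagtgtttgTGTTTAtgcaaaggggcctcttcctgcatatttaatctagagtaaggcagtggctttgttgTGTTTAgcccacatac

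The core occurred at 2 places in this stretch, 77 and 16 bases before the start. The core was chosen after the sequence had been seen. On either strand 12.0% of 32851 RefSeq promoter windows hold it at least once within the 250 bases before the start. The share of windows with 2 matches was not counted. The longer forkhead letters TGTTTAC were not in the 250 bases before this start, and 3.17% of windows hold them there. The AP-1 letters TGANTCA (6.75% of windows), the ETS letters CCGGAA (12.0%), the Runx letters TGTGGT (14.0%) and the repeat TTTGTTT (8.74%) were not there either. A match of letters is a description of the sequence and not a binding site. In the same distance before the other starts, TGTTTA occurred 91 bases before the first Foxp1 start, on the opposite strand, and 55 bases before the third start. The first start also had TTTGTTT at 196 bases, on the opposite strand. None of these motifs occurred in that window of Foxo1 or Foxo3. Sequence of the other sites was not analysed here.

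Foxp1 had more cTreg-specific sites than any other gene. Of its 21 sites, 12 were cTreg-specific (57.1%), 7 common and 2 eTreg-specific. Among the 5187 sites of genes other than these, 12.6% were cTreg-specific. By cTreg-specific sites Foxp1 ranked above Satb1, a chromatin organiser of T cells, with 10, and Ripor2 with 8. By sites of all classes it came after Akap13 alone, which had 22 (3 of them cTreg-specific), among 2760 genes with a site. Foxp1 thus held 1.65% of all 727 cTreg-specific sites.

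**Figure D1:**
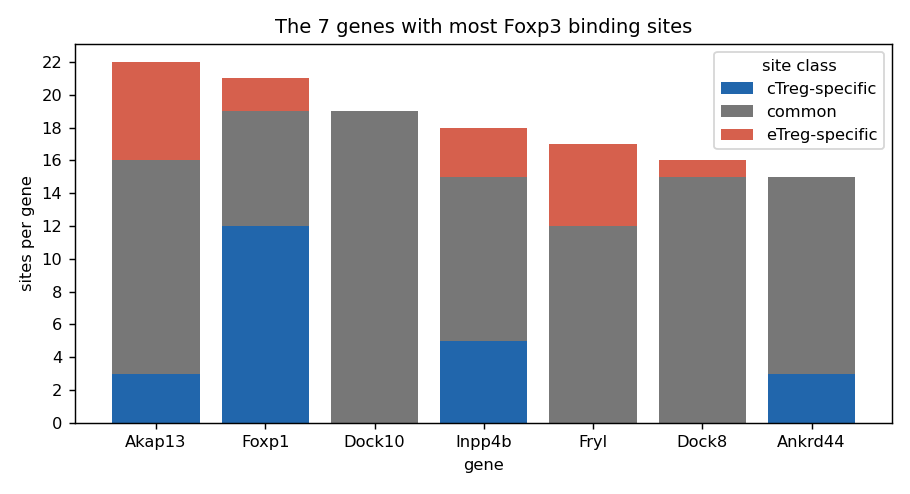
Number of Foxp3 binding sites (vertical axis) at the 7 genes with the most sites (horizontal axis), stacked by site class. Foxp1 has 12 cTreg-specific sites of 21, and Akap13, the gene with the most sites, has 3 of 22.

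Foxp1 is a long gene, at chromosome 6, 98925342 to 99522746 (GRCm38.p6, minus strand, 597 kb). Relative to its length it had 3.52 sites and 2.01 cTreg-specific sites per 100 kb. The median gene among the 232 of at least 200 kb with a site had 0.565 sites per 100 kb, 2 sites in all and 0 cTreg-specific ones. Foxp1 was 12th of these by site density and 2nd by density of cTreg-specific sites. The shorter gene Satb1 was denser, with 10.3 cTreg-specific sites per 100 kb of gene. That density divides all sites given to a gene, outside its body too, by the length of the body.

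Foxo1 and Foxo3 differed from Foxp1 in class and number. Foxo1 (chromosome 3, 52268337 to 52350109, plus strand, 81.8 kb) had 2 sites, both common and inside the gene, 4.40 and 30.5 kb from its start. Foxo3 (chromosome 10, 42181845 to 42276695, minus strand, 94.9 kb) had none. The site nearest to Foxo3 was common, lay 244 kb away and was given to Armc2.

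All 21 Foxp1 sites lay inside the gene, and the nearest other site was 316 kb away. No Foxp1 site was near the first start, as the nearest lay 79.6 kb into the gene. Classes were unevenly spread along it. Between the first and second start there were 9 cTreg-specific sites, 1 common and 0 eTreg-specific. Between the second and the third start there were 2, 4 and 1 of these classes, and 1, 2 and 1 beyond the third start. The common site nearest to the third start was 1.43 kb from it. Neighbouring sites were a median of 12.3 kb apart, from 1.13 to 91.1 kb. The widest gap separated a 5′ group of 7 sites, 6 of them cTreg-specific, at 79.6 to 146 kb, from the other 14. Whether the sites are exonic, intronic or in a UTR was not analysed here.

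**Figure D2:**
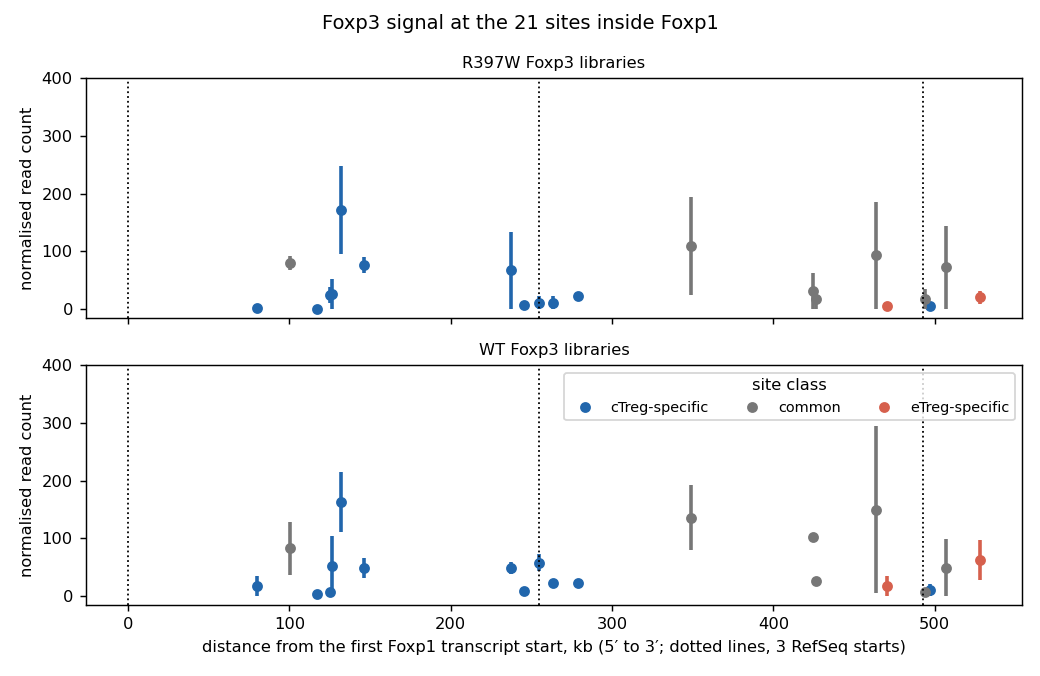
Mean normalised read count of the R397W Foxp3 libraries (upper panel) and the WT Foxp3 libraries (lower panel) at each Foxp1 site, by distance in kb from the first transcript start. Points are means of 2 libraries, vertical lines run between the 2 values, and colours give the class. The cTreg-specific sites gather in the 5′ portion, and the strongest of them in both genotypes is the one at 132 kb. Classes are on separate scales.

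The cTreg-specific site at 132 kb (chromosome 6, 99388939 to 99389339) was the strongest of its class in Foxp1. It held 96.0 and 248 normalised reads in R397W Foxp3 libraries 1 and 2, against 111 and 215 in WT Foxp3. IgG gave 136 and 93.9 in R397W cells and 59.2 and 93.1 in WT cells. The genotypes overlapped, and so did Foxp3 and IgG in R397W cells, while WT Foxp3 stood above WT IgG without overlap. The difference R397W minus WT was -0.00 on the log2(normalised read count + 1) scale (SE 0.71). Of the 23 sites it alone had reads in all 8 libraries, and 17.0% of all sites did.

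The cTreg-specific site at the second start (99266341 to 99266741) held 21.9 and 0.709 normalised reads in R397W Foxp3 and 42.9 and 73.2 in WT Foxp3. IgG gave 36.7 and 0.652 in R397W cells and 30.0 and 0 in WT cells. Both R397W Foxp3 values were below both WT Foxp3 values, and both WT Foxp3 values were above both WT IgG values. In R397W cells Foxp3 and IgG overlapped, with IgG higher in pair 1. The log2 difference R397W minus WT was -3.19 (SE 2.29, unadjusted p = 0.210 by limma) and did not pass after adjustment.

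The cTreg-specific sites at 146 and 279 kb had reads in all Foxp3 libraries, like those at 132, 254 and 263 kb. The site at 146 kb held 62.3 and 90.1 in R397W Foxp3 and 32.0 and 66.5 in WT Foxp3, with IgG at 34.6 and 24.8 in R397W cells and 82.3 and 0 in WT cells. The site at 279 kb held 13.5 and 30.5 in R397W Foxp3 and 17.7 and 27.8 in WT Foxp3, with IgG at 121 and 0 in R397W cells and 52.3 and 0 in WT cells. At both sites the genotypes overlapped in the Foxp3 libraries, and WT Foxp3 overlapped WT IgG.

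The site at 263 kb, next to the second start, held 21.9 and 0.709 in R397W Foxp3 and 26.9 and 19.6 in WT Foxp3. IgG there gave 47.6 and 0 in R397W cells and 42.0 and 0 in WT cells. In both genotypes IgG thus exceeded Foxp3 in pair 1. The site at 237 kb held 0 and 134 in R397W Foxp3 and 37.9 and 58.8 in WT Foxp3. That at 245 kb held 13.5 and 0 in R397W and 9.26 and 8.25 in WT. IgG gave 8.65 and 44.3 in R397W cells and 43.7 and 0 in WT cells at 237 kb. At 245 kb IgG gave 15.1 and 0 in R397W cells and 0 and 0 in WT cells. At 237 and 245 kb the R397W Foxp3 values lay on either side of the WT Foxp3 values. WT Foxp3 overlapped WT IgG at 237 kb and stood above it without overlap at 245 kb.

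In the remaining 5 cTreg-specific sites WT Foxp3 library 2 had no reads. At 80 kb from the first start the R397W Foxp3 values were 3.37 and 0.709, against 35.4 and 0 in WT. At 117 kb they were 0 and 0, against 8.42 and 0 in WT, the lowest means of the 12. At 125 kb they were 38.8 and 10.6, against 14.3 and 0 in WT. The genotypes overlapped at 80 and 125 kb, and at 117 kb WT library 1 was the only Foxp3 library with reads. At 126 kb the R397W values were 52.2 and 0, against 104 and 0 in WT, and at 497 kb 10.1 and 0, against 20.2 and 0 in WT. WT IgG gave 0 and 0 at 80, 117 and 125 kb. R397W IgG gave 8.65 and 0 at both 80 and 117 kb, and 56.2 and 0 at 125 kb. IgG gave 23.8 and 18.3 in R397W cells and 1.72 and 0 in WT cells at 126 kb. It gave 19.5 and 0 in R397W cells and 12.9 and 0 in WT cells at 497 kb. In R397W pair 1 IgG exceeded Foxp3 at 80, 117, 125 and 497 kb, but not at 126 kb. In WT pair 1 Foxp3 exceeded IgG at all of these sites.

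**Figure D3:**
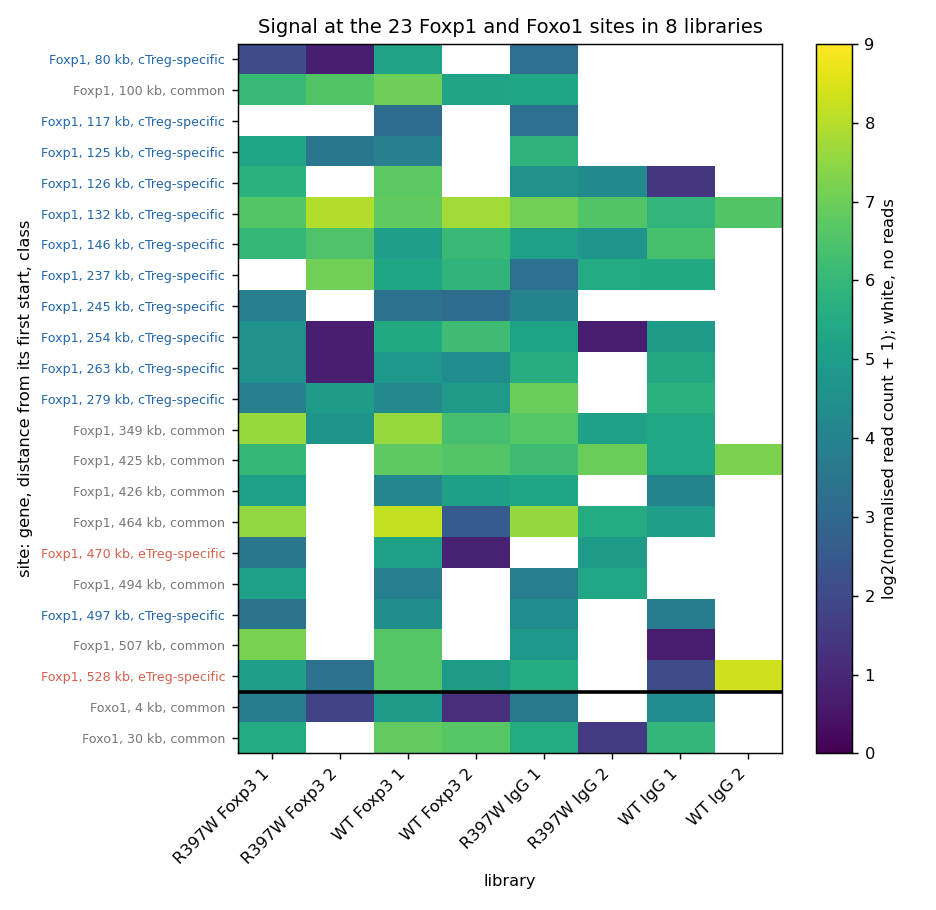
Signal of each of the 23 sites (rows, Foxp1 above the line and Foxo1 below it, in order from the first start) in the 8 libraries (columns), as log2(normalised read count + 1). White cells have no reads, and they are most frequent in WT IgG library 2, where 20 of the 23 sites are empty.

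Among the common sites of Foxp1, that at 464 kb (99057068 to 99057468) had the highest mean in WT Foxp3. It held 186 and 0 normalised reads in R397W Foxp3 and 295 and 5.12 in WT Foxp3. IgG gave 190.1 and 45.2 in R397W cells and 31.1 and 0 in WT cells. Values were thus high in libraries 1 and near 0 in libraries 2 with anti-Foxp3, and the genotypes overlapped. Anti-Foxp3 gave less than IgG in both R397W pairs of one number, and more in both WT pairs. That difference between genotypes was -5.69 (log2, SE 3.67, unadjusted p = 0.121 by limma), and the log2 difference R397W minus WT in Foxp3 was -1.64 (SE 3.10).

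The common site at 425 kb (99096062 to 99096462) held 63.0 and 0 in R397W Foxp3 and 109 and 94.5 in WT Foxp3. IgG gave 72.4 and 126 in R397W cells and 41.6 and 149 in WT cells. R397W Foxp3 lay below both WT Foxp3 and R397W IgG without overlap, whereas WT Foxp3 overlapped WT IgG. The log2 difference R397W minus WT was -3.68 (SE 2.22, unadjusted p = 0.145 by limma). Against IgG the R397W value was -3.59 (SE 1.75, unadjusted p = 0.0403), which did not pass after adjustment over all sites (adjusted p = 1).

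The common site at 349 kb held 194 and 24.5 in R397W Foxp3 and 193 and 79.6 in WT Foxp3, with IgG at 97.3 and 34.4 in R397W cells and 40.3 and 0 in WT cells. That at 100 kb held 68.3 and 92.8 in R397W Foxp3 and 129 and 37.2 in WT Foxp3, with IgG at 38.5 and 0 in R397W cells and 0 and 0 in WT cells. At both sites the genotypes overlapped in Foxp3, and WT Foxp3 exceeded WT IgG without overlap. The remaining common sites were uneven between libraries. Foxp3 values were 34.1 and 0 in R397W and 17.0 and 34.0 in WT at 426 kb, 34.1 and 0 in R397W and 13.3 and 0 in WT at 494 kb, and 144 and 0 in R397W and 98.2 and 0 in WT at 507 kb. IgG gave 38.5 and 0 in R397W cells and 15.9 and 0 in WT cells at 426 kb. At 494 kb it gave 13.6 and 40.1 in R397W cells and 0 and 0 in WT cells. At 507 kb it gave 27.2 and 0 in R397W cells and 0.661 and 0 in WT cells. Of the 7 common sites, 5 had no reads in R397W Foxp3 library 2.

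The eTreg-specific sites of Foxp1 were its 2 sites at 470 and 528 kb. At 528 kb (98992753 to 98993153) there were 31.4 and 9.37 normalised reads in R397W Foxp3 and 97.9 and 28.8 in WT Foxp3. IgG gave 47.1 and 0 in R397W cells and 3.14 and 323 in WT cells, so that the highest of the 8 values was an IgG value. The genotypes overlapped narrowly, and the log2 difference R397W minus WT was -1.57 (SE 1.52). At 470 kb the Foxp3 values were 10.5 and 0 in R397W and 34.6 and 0.768 in WT. IgG there gave 0 and 29.5 in R397W cells and 0 and 0 in WT cells.

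In Foxo1 the site at 30.5 kb from the start (52298594 to 52298994) held 44.6 and 0 normalised reads in R397W Foxp3 and 114 and 99.6 in WT Foxp3. IgG gave 45.3 and 1.91 in R397W cells and 60.8 and 0 in WT cells. Both WT Foxp3 values stood above both R397W Foxp3 values and above both WT IgG values, and R397W Foxp3 was slightly below R397W IgG in each numbered pair. The log2 difference R397W minus WT was -3.99 (SE 2.17, unadjusted p = 0.112 by limma), the largest in size of the 23, and it did not pass after adjustment. The difference between genotypes in Foxp3 minus IgG was -4.55 (SE 4.20, unadjusted p = 0.278 by limma).

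The other Foxo1 site, 4.40 kb from the start, was weak. It held 13.1 and 2.58 in R397W Foxp3 and 27.9 and 1.40 in WT Foxp3, with IgG at 11.3 and 0 in R397W cells and 19.8 and 0 in WT cells. The genotypes overlapped.

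Whether R397W altered Foxp3 occupancy at these genes was asked with limma on the 4 Foxp3 libraries. None of the 23 sites was called (adjusted p = 1 for each), nor was any of the 5521 (0.00%), with 18 sites (0.326%) at an unadjusted p under 0.05 and 0 of them members. edgeR and DESeq2 on recovered reads also called 0 sites, with 40 and 60 at an unadjusted p under 0.05. The fitted value was lower in R397W at 18 of 23 sites and higher at 5, and over all sites it was lower at 60.4%. The median log2 difference was -1.14 for the 23 sites and -0.39 for all sites. R397W Foxp3 lay below WT Foxp3 without overlap at 3 sites (background 12.6%), those at the second Foxp1 start, at 425 kb and at 30.5 kb in Foxo1, and above it at 0 (background 6.43%). At the 3 sites R397W library 2 held 0 or 1 read.

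The median rested on single libraries. Without R397W Foxp3 library 2, in which 11 of 23 member sites and 55.5% of all sites had no reads, it was 0.42 for the 23 sites and 0.43 for all. Without WT Foxp3 library 1, in which 0 of 23 were empty, it was 0 and 0.32 for these groups of sites. Leaving out R397W Foxp3 library 1 gave -2.29 and -1.79, and leaving out WT Foxp3 library 2 gave -2.16 and -1.68. In the last of these settings 643 sites were called, among them 1 member, the weak Foxp1 site at 117 kb (adjusted p = 0.000574 by limma, with the lone WT library assumed to vary like the R397W libraries, which both had 0 reads there).

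Summed over its cTreg-specific sites, Foxp1 signal overlapped between genotypes. The sum was 334 and 515 in R397W Foxp3 and 460.5 and 469 in WT Foxp3, or 425 ± 129 in R397W and 465 ± 6.14 in WT (SD, n = 2 each). IgG gave 517 and 182 in R397W cells and 324 and 93.1 in WT cells, so that in R397W pair 1 IgG exceeded Foxp3, and WT Foxp3 stood above WT IgG without overlap. Common Foxp1 sites summed to 725 and 117 in R397W and 854 and 250.5 in WT, and eTreg-specific sites to 41.9 and 9.37 in R397W and 133 and 29.6 in WT. The genotypes overlapped in each of these classes with anti-Foxp3. IgG at the common sites summed to 478 and 246 in R397W cells and 130 and 149 in WT cells, higher in R397W without overlap, and at the eTreg-specific sites to 47.1 and 29.5 in R397W and 3.14 and 323 in WT. Ratios of R397W to WT for libraries 1 and libraries 2 were 0.316 and 0.317 for the eTreg-specific sum. They were 0.725 and 1.10 for the cTreg-specific sum and 0.849 and 0.468 for the common one. The numbers share no stated source between genotypes, so closeness of such ratios is not a measure of replicate spread. The eTreg-specific sum rested on 20 and 12 reads in R397W Foxp3 and 153 and 77 in WT Foxp3. How often the sums of other genes stood apart without overlap was not counted, so the sums have no background share.

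Foxo1 summed to 57.8 and 2.58 in R397W Foxp3 and 142 and 101 in WT Foxp3, or 30.2 ± 39.0 in R397W and 121 ± 28.9 in WT (SD, n = 2 each), without overlap. R397W to WT ratios by number, with no stated common source, were 0.407 for libraries 1 and 0.0255 for libraries 2. In IgG the sums were 56.6 and 1.91 in R397W cells and 80.6 and 0 in WT cells. Without R397W library 2 the log2 difference of the Foxp3 sum was -1.04, against -3.06 with all 4 libraries. The R397W Foxp3 sum rested on 22 and 4 reads, and its lack of overlap with WT has no background share from other genes. An exact permutation test of 2 libraries against 2 cannot give a p below 0.33, so the sums were not tested.

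How far anti-Foxp3 stood above IgG was asked in WT cells first. The fitted value was higher with anti-Foxp3 at 23 of 23 sites, and at 74.3% of all sites. These are listed Foxp3 sites whose calling was not given, so whether such an excess was built in cannot be told. The same holds for values lower in R397W than in WT. WT Foxp3 exceeded WT IgG without overlap at 8 of 23 sites (background 19.5%) and lay below it at 0 (background 4.84%). The median log2 difference was 2.59 for the 23 sites and 1.27 for all sites. None of the 23 was called (adjusted p from 0.991 to 1 by limma), while 4 of all sites (0.0725%) were, and 0 were with a block for the cell sample. The common Foxp1 sites at 349 kb (log2 difference 4.28, SE 1.93, unadjusted p = 0.0264 by limma) and 100 kb (6.14, SE 3.09, unadjusted p = 0.0472 by limma) had the smallest p-values. They were 2 of 23, and 2.41% of all sites were past 0.05 unadjusted in this direction.

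WT IgG library 2 had no reads at 20 of 23 member sites (87.0%), against 66.8% of all sites. Without it the fitted value was higher at 18 of 23 sites and 54.4% of all sites, and the median was 1.37 for the 23 and 0.21 for all. Without WT Foxp3 library 1 it was higher at 14 of 23 and 40.5% of all, with medians of 0.82 and 0.00. The part of sparse libraries in the result was not tested further.

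In R397W cells the fitted value was higher with anti-Foxp3 at 9 of 23 sites, and at 51.3% of all sites. R397W Foxp3 exceeded R397W IgG without overlap at 2 of 23 (background 10.4%), the cTreg-specific site at 146 kb and the common site at 100 kb, and lay below it at 1 (background 7.84%), the common site at 425 kb. The median was -0.16 for the 23 sites and 0.05 for all, and 0 of the 23 and 0 of all sites were called, with 81 of all sites (1.47%) and 1 member at an unadjusted p under 0.05 by limma. Leaving out 1 library moved this median between -2.01 and 1.56.

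The difference between genotypes in Foxp3 minus IgG was below 0 at 21 of 23 sites and at 65.7% of all sites, with a median of -2.78 for the 23 sites and -1.02 for all. No member was called (adjusted p = 1.00 by limma), nor was any other site, with 91 of all sites (1.65%) and 0 members at an unadjusted p under 0.05. Leaving out 1 library moved the median of the 23 sites between -4.18 and -1.14. Part of this difference was in the IgG libraries themselves. IgG was higher in R397W than in WT in the fit at 21 of 23 sites (background 56.7%), without overlap at 4 (background 11.3%) and lower without overlap at 0 (background 5.51%), with a median of 1.63 for the 23 sites and 0.33 for all. None of the 23 was called in IgG, against 2 of all sites (0.0362%). Without R397W IgG library 1 the IgG median was 0 for the 23 sites, of which 9 were above 0, and without WT IgG library 2 it was 0.92, with 14 above 0.

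Shares of reads do not depend on any scaling factor between libraries. Foxp1 held 1.24% and 2.49% of the reads of the cTreg-specific class in R397W Foxp3, and 1.50% and 2.95% in WT Foxp3. In IgG it held 1.72% and 1.25% in R397W cells and 1.33% and 0.693% in WT cells. With 1.65% of the class's sites, the share was above that level in libraries 2 with anti-Foxp3 and below it in libraries 1, in both genotypes. Exact binomial intervals (Clopper-Pearson, 95%) ran from 2.32% to 2.68% in R397W Foxp3 library 2 and from 2.76% to 3.14% in WT Foxp3 library 2. They cover counting error only. In each number the R397W share was below the WT share, and the intervals overlapped for libraries 1 but not for libraries 2. The numbers share no stated source, and R397W Foxp3 library 2 was above WT Foxp3 library 1.

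**Figure D4:**
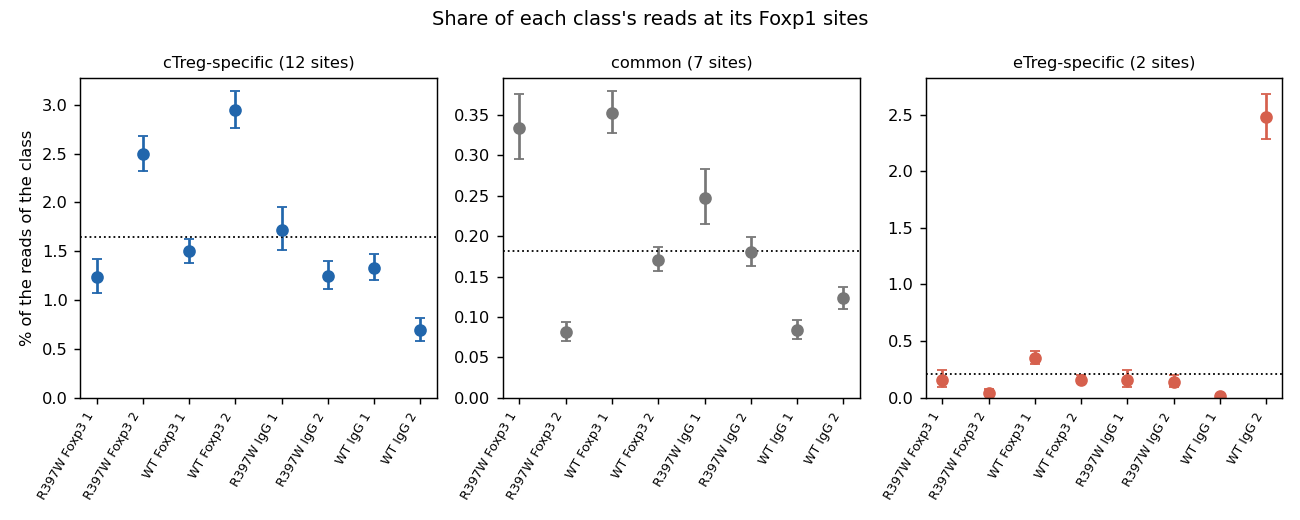
Share of a class's reads that fell in its Foxp1 sites, in percent, in each of the 8 libraries, with 1 panel per class. Bars are exact 95% binomial intervals and dotted lines give the share of the class's sites. In the cTreg-specific panel the R397W and WT Foxp3 libraries 2 stand at 2.49% and 2.95%, above the other 6, and in the eTreg-specific panel WT IgG library 2 stands at 2.48%.

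For the common class the Foxp1 share was 0.334% and 0.0812% in R397W Foxp3 and 0.353% and 0.171% in WT Foxp3. With IgG this share was 0.248% and 0.180% in R397W cells and 0.0838% and 0.123% in WT cells. For the eTreg-specific class the Foxp1 share was 0.157% and 0.0429% in R397W Foxp3 and 0.350% and 0.158% in WT Foxp3. With IgG it was 0.155% and 0.139% in R397W cells and 0.0141% and 2.48% in WT cells. The 2 Foxo1 sites held 22 and 4 reads in R397W Foxp3 and 117 and 217 in WT Foxp3. These are 0.0266% and 0.00178% of common reads in R397W and 0.0586% and 0.0690% in WT. In libraries 2 the R397W interval ended at 0.00457% and the WT interval began at 0.0601%. These intervals cover counting error within 1 library and not the spread between libraries. With IgG the Foxo1 share was 0.0293% and 0.00140% in R397W cells, close to R397W Foxp3. In WT cells it was 0.0521% and 0%, and library 1 was thus close to WT Foxp3 library 1.

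Sites of other forkhead genes were counted. The share of all protein-coding genes with a site was not counted. Numbers of genes with a site, in this and the other lists, therefore have no background. Of 41 listed, 5 had 11 sites (4 cTreg-specific, 5 common, 2 eTreg-specific), namely Foxk1, Foxn2, Foxn3, Foxp3 and Foxp4, a relative of Foxp1 with 1 eTreg-specific site. The site with the highest WT Foxp3 mean was cTreg-specific, in Foxk1. It held 256 ± 107 normalised reads in R397W Foxp3 and 251 ± 177 in WT Foxp3 (SD, n = 2 each). In lists of mixed class this rank runs across classes, whose values stand on separate scales. A common site in Foxp3 itself held 125 ± 69.6 in R397W and 223 ± 14.9 in WT, and a cTreg-specific site in Foxn3 86.5 ± 34.1 in R397W and 105 ± 49.2 in WT (SD, n = 2 each). Foxn3, with 3 cTreg-specific sites of 5, was the other forkhead gene with more than 1 of that class.

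Genes that act on FoxO factors or are regulated by them were listed as well. Of 27 PI3K and AKT pathway genes, 14 had 49 sites (8 cTreg-specific, 35 common, 6 eTreg-specific), of which 18 were in Inpp4b, a phosphoinositide phosphatase. The highest WT Foxp3 mean was at a common site in Pik3r5, a regulatory subunit of PI3K. It held 356 ± 9.26 in R397W Foxp3 and 425 ± 87.9 in WT Foxp3 (SD, n = 2 each). A common site in Tsc1, an inhibitor of mTORC1 signalling, held 142 ± 10.6 in R397W and 147 ± 45.6 in WT, and another in Pik3r5 98.4 ± 83.6 in R397W and 144 ± 189.8 in WT. Of 16 FoxO partners and modifiers, 8 had 13 sites, all common. The strongest was in the histone deacetylase gene Hdac7 (317 ± 24.8 in R397W and 517 ± 296 in WT), followed by the kinase gene Stk4 (100.2 ± 114 in R397W and 87.3 ± 41.2 in WT).

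Genes known as FoxO or Foxp1 targets in T cells formed the last list. Of 20 listed, 14 had 50 sites, 19 of them cTreg-specific (38.0%, beside 13.2% of all sites), 27 common and 4 eTreg-specific. S1pr1, the receptor for exit from lymph nodes, had 2 cTreg-specific sites, 78480 and 20895 bp outside the gene. Klf2, a transcription factor of quiescent T cells, had 1, at 15283 bp outside it. WT Foxp3 means were 75.5 and 0 at the S1pr1 sites and 9.26 at the Klf2 site. Other listed genes had 0 of this class, such as Cxcr4 with 3 common sites. The highest WT Foxp3 means, across classes on separate scales, were near or in Tcf7, a transcription factor of naive T cells. A cTreg-specific site there held 151 ± 129 in R397W and 293 ± 190.3 in WT. A common one held 179 ± 21.2 in R397W and 262 ± 117 in WT. A common site near Cxcr4, a chemokine receptor gene, held 109.9 ± 45.1 in R397W and 245 ± 218 in WT (SD, n = 2 each). No site of these 4 lists was called between genotypes (limma, adjusted p = 1 for the sites named). The median log2 difference R397W minus WT was -0.24 for other forkhead genes, -0.25 for the PI3K and AKT genes, -0.52 for the partners and -0.54 for the targets, beside -0.39 for all sites.

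The genes whose summed signal followed that of Foxp1 most closely over the 8 libraries were Arap2 (r = 0.938), Gramd1a (r = 0.923) and Zswim6 (r = 0.883). For Foxo1 they were Bdp1 (r = 0.907), Lcp1 (r = 0.905) and Thada (r = 0.894). These are Pearson correlations of log2 sums, less the library's median, over genes with at least 5 sites, of which 191 were compared with Foxp1 and 192 with Foxo1. The median correlation was -0.05 for Foxp1 and 0.21 for Foxo1. Sums of genes with sites of several classes add values on separate scales. The points share library depth and sparseness, and the values are given as a description.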

How the data were processed

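The authors deposited a signal per library at 3 lists of Foxp3 sites, which their file names call spike-in normalised. Per the submitters' processing notes, the tools were Bowtie2 2.5.2 and DiffBind 3.12.0 and the builds dm6 and mm10, with no roles given. The calling of sites was not given in the sources used here. Per the labels' protocols, fixation took 2 minutes in 0.1% formaldehyde, and spike-in nuclei and 0.5 µg of antibody were added. Within a library and file, 100% of the deposited signal values were whole multiples of 1 read's worth (tolerance 0.01), so that reads could be recovered. Each file has its own factors (1 read of R397W Foxp3 library 1 counts as 1.69 at cTreg-specific, 2.63 at common and 2.09 at eTreg-specific sites). Which part the spike-in had in them could not be told from the files, so a change of a whole library may or may not remain in the values.

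Libraries were grouped by their titles, and columns named RW were read as R397W, the other genotype in the labels. The 3 member genes and all lists were chosen with earlier results of these data known. limma 3.58.1 (R 4.3.3, trended, two-sided) was fitted to log2(normalised read count + 1) of all 5521 sites, with Benjamini-Hochberg adjustment and a threshold of 0.05. The 4 Foxp3 libraries gave R397W minus WT, and a fit of all 8 libraries gave the contrasts with IgG. Recovered reads were also tested with edgeR 4.0.16 and DESeq2 1.42.0, with the deposited factors. Other pseudocounts (0.5 and 5), scalings, a filter on the lowest 25% of sites, blocks, IgG subtraction, gene limits and each library left out were tried. The code was run on simulated counts. Nothing on power or false calls at the sparseness of these libraries is drawn from them. Genes, promoters and strands came from RefSeq (GRCm38.p6). All 3 members matched, 2 of them with a site. A genome sequence was not used here.

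Titles name one cell sample for a Foxp3 and an IgG library, which pairs them. Over sites their replicate differences correlated at 0.135 in R397W and 0.0375 in WT.

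Described with values are all member sites, in particular the strongest of each gene and class in WT Foxp3, and the 2 per gene with the largest genotype difference without overlap. From other lists the 3 sites with the highest WT Foxp3 mean are named, except where a gene is not reported here, and the 3 genes most correlated with each member.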

Additional observations from a re-analysis of the deposited data

How the results depend on the processing

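R397W minus WT called 0 sites, and 6 with DESeq2 and a local dispersion trend, which was chosen after seeing the data. Leaving out each library in turn gave 0 to 643 sites, and 0 to 1 of the 23 member sites. Foxp3 minus IgG in WT called 4 sites, and 0 with a pseudocount of 5, with equal totals or with the replicate block on the cell sample, and 0 to 189 with a library left out. The genotype difference in Foxp3 minus IgG called 0 sites, and 0 to 182 with a library left out. R397W minus WT in IgG called 2 sites, 0 with a pseudocount of 5 or equal totals, and 0 to 15 with a library left out. A replicate block on the number 1 or 2 left the R397W minus WT count at 0, with 140 sites at an unadjusted p under 0.05 (limma). The numbers share no stated source, and replicate differences of the genotypes correlated at 0.167 over sites. This block was run for R397W minus WT with anti-Foxp3 and called none of the 23 sites. The block on the cell sample left Foxp3 minus IgG in R397W and the genotype difference at 0 calls.

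The Foxp1 site at 132 kb, at -0.00, turned to 0.0011 with a pseudocount of 5, 0.18 with equal totals, 0.0803 with one set of factors, 0.0799 with edgeR, 0.0795 with DESeq2 and 0.0840 with its local trend. With a library left out it ran from -0.68 to 0.68. The common site at 464 kb, at -1.64, ran from -5.41 to 2.14 with a library left out, and was 1.16 without WT Foxp3 library 1. The eTreg-specific site at 528 kb, at -1.57, became 0.84 with IgG subtracted. The causes were not tested. Log2 differences of the Foxp1 sums changed sign. The cTreg-specific sum, at -0.16, became 0.014 with equal totals and 0.15 without R397W Foxp3 library 1. The common sum, at -0.66, became 0.65 without R397W Foxp3 library 2 and 0.22 without WT Foxp3 library 1. The sum of all classes, at -0.31, became 0.079 and 0.17 without these libraries, and it adds classes that stand on separate scales. The eTreg-specific sum (-2.66 to -0.53) and the Foxo1 sum (-5.08 to -1.04) stayed below 0 with each library left out. Class counts of Foxp1 and Foxo1 were the same with gene bodies only and with a 10 kb limit. With 2 libraries a group and many sites without reads, even large differences at single sites could go uncalled at this depth. The Foxo1 site at 30.5 kb, at -3.99 (log2, SE 2.17), was not called. A count of 0 calls therefore does not show that occupancy was unchanged.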
